A study of Mus musculus with 8 samples.

Results

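The cell cycle and DNA replication families measured here were 55 mouse genes, of 9294 genes with exactly 1 symbol on the array. They were chosen by name: Mki67 and Top2a, and the symbols beginning with Kif, Cenp, Cdc, Cdca, Ccna, Ccnb, Ccne, Mcm, Aurk, Bub, Plk, Ncap, E2f, Pole, Pold, Rfc and Orc, a number following where the family has one. Each member was represented by 1 probe set, the only one with that single symbol. No probe set with a single symbol of Top2a, of a Bub gene, of Ccnb1, Ccna2, Aurka or Aurkb, or of the core helicase subunits Mcm2 to Mcm7 was analysed here. The 55 genes therefore do not cover these families in full. By role they were 4 mitotic kinesins, 14 cyclins, kinases and other regulators, 12 genes named Cenp or Ncap, most of them of the centromere, kinetochore or condensin, 8 DNA replication genes, 2 E2F factors, and 15 genes that share only the name or act mainly outside the cell cycle.

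The RNA came from cultured mouse keratinocytes of the C57BL/6 strain, the epithelial cells of the epidermis, in 2 groups of 4 arrays. The Nfkbiz KO group lacked Nfkbiz, the gene of the atypical IkB protein IkBz, which acts in the nucleus on genes bound by NF-kB, and the other group was wildtype. Both groups carried v-rasHa, an oncogenic viral form of Hras, and were kept for 3 days after transduction in regular medium without starvation. The labels call the 4 samples of each group biological replicates, without saying whether they came from separate animals. No culture without v-rasHa was analysed here, so the genotypes are compared among transduced cells only.

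Cells replicate their DNA in S phase and divide in mitosis. E2F factors switch on replication genes at the start of S phase, the origin recognition complex, Cdc6 and the MCM helicase prepare origins, and the DNA polymerases with their clamp loader copy the genome. Later, B-type cyclins with Cdk1 and the kinase Plk1 drive entry into mitosis, kinetochores built on centromeres attach chromosomes to the spindle, and mitotic kinesins move chromosomes and complete cytokinesis. Oncogenic RAS can drive keratinocytes into the cycle, and it can also induce the inhibitors encoded by Cdkn2a and Cdkn2b, which stop it.

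Signals are log2 values per probe set, and array medians lay between 4.49 and 4.57. Over all genes the standard error of the difference had a median of 0.07, and the 4 arrays per group limit the precision. Nfkbiz and Hras were not analysed here, so the knockout was not checked from these values. The label of the cells was checked by keratinocyte markers: Krt5, a basal keratin, averaged 13.29 ± 0.06 in Nfkbiz KO and 13.42 ± 0.03 in wildtype arrays (SD, n = 4 each), and 1 of the 8 keratinocyte markers, Col17a1, passed the test, lower in the KO. Krt5 was the strongest of the 8. Over all arrays Krt15 averaged 4.69, Krt1 6.61 and Krt10 6.74, so the markers were not all high. The summed linear signal of the 8 keratinocyte markers was 21856 to 23299 in KO arrays and 23921 to 24566 in wildtype arrays. Of the 6 measured fibroblast markers, 5 (Lum, Thy1, Dpt, Dcn and Twist2) fell and Postn rose in the KO, and their summed linear signal was 490.5 to 565.9 in KO arrays and 760.1 to 825.1 in wildtype arrays. The 3 melanocyte markers summed to 2183 to 2689 in KO arrays and 2816 to 2947 in wildtype arrays, with Pmel called lower. None of the 7 leukocyte and 3 endothelial markers passed limma, although 2 leukocyte markers and 1 endothelial marker had an unadjusted p under 0.05, all lower. Over all 9294 genes, 1932 had such a p, 1012 of them lower. The leukocyte markers summed to 209.3 to 224.7 in KO and 221.2 to 254 in wildtype arrays, and the endothelial markers to 66.3 to 82.5 in KO and 76.5 to 85.2 in wildtype arrays. A log2 table has no value at 0, so the absence of a cell type could not be read from it. The part of these other cells in the results below was not tested, and in bulk RNA fewer cells of a type cannot be told apart from less RNA per cell.

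Of the 55 members, 7 rose in Nfkbiz KO keratinocytes: Kif20a, Mki67, Cenpj, Plk1, Cenph, Cenpl and Ccnb2. Cdca7 and Plk3 fell, and 46 members did not pass the test. A gene was said to rise or fall where limma with Benjamini-Hochberg adjustment over all 9294 genes gave an adjusted p under 0.05. The 9 called members were 16.4% of the 55, where 8.90% of all genes were called. Genes higher in the KO were 4.47% of all genes and genes lower in the KO 4.43%. Called genes were more common at higher signals: among the 46 members above the array median 19.6% were called, where 14.6% of all genes above that median were. Changes were small, with log2 fold changes (KO minus wildtype) from -0.22 to 0.39 over the members, from 0.858-fold to 1.31-fold. The median log2 fold change was 0.03 over the members and -0.01 over all genes, and the median size of a call was 0.24 in the members and 0.35 in all genes. The 2 groups of arrays did not overlap for 14 members, 25.5% of them, where this held for 15.9% of all genes. Above the array median these shares were 30.4% of members and 25.1% of all genes. In 9 members all KO arrays were higher and in 5 all were lower, and among all genes these shares were 7.91% and 7.97%.

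**Figure D1:**
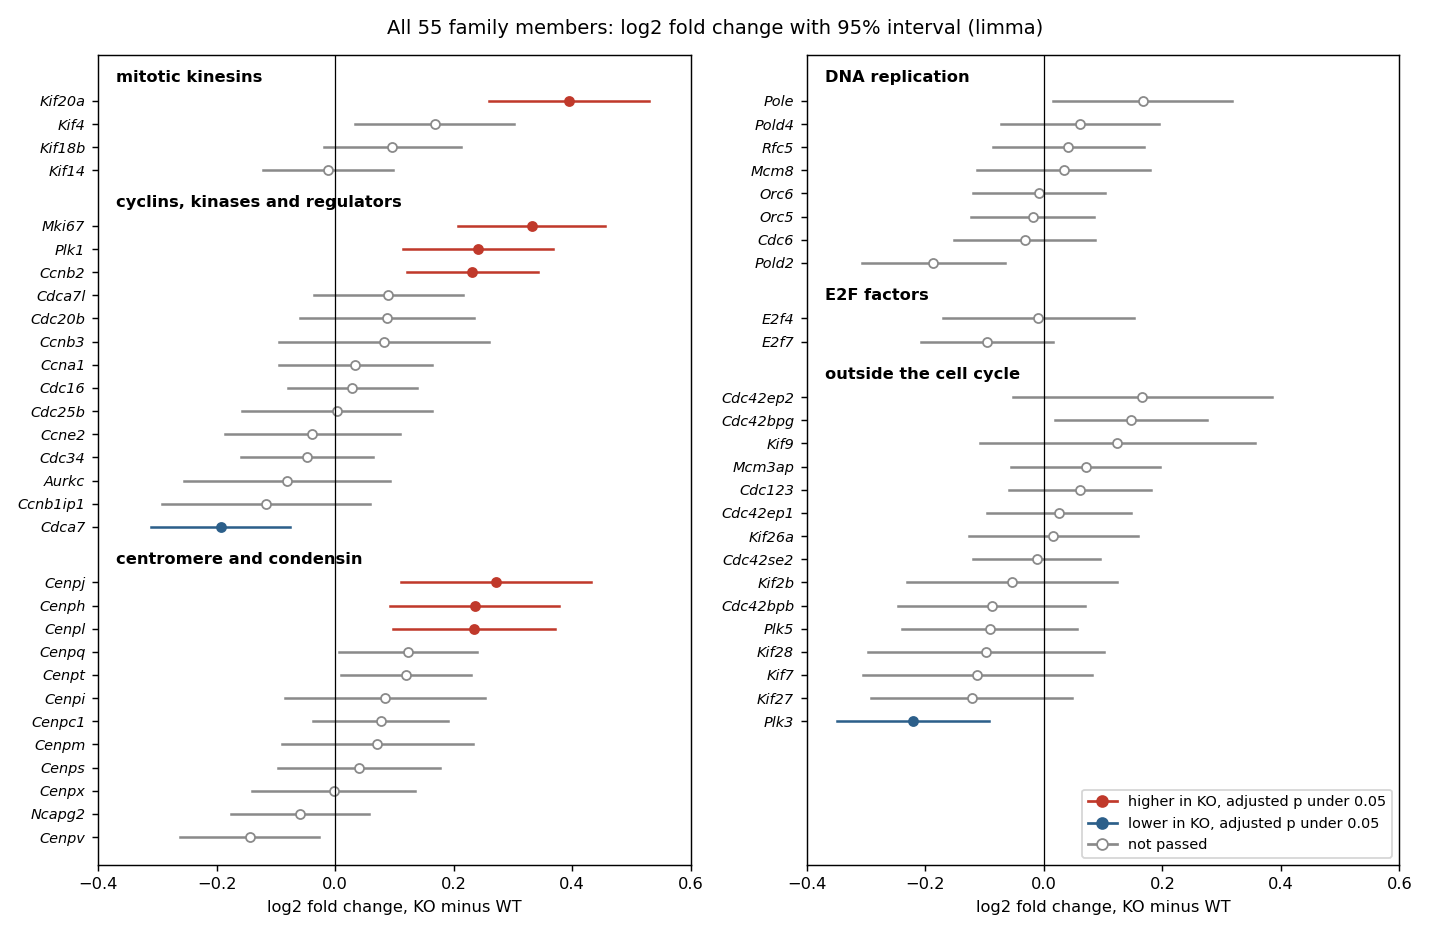
Log2 fold change of every member, Nfkbiz KO minus wildtype (x axis, log2 units), with the 95% interval from limma (n = 4 arrays per group), members grouped by role. Filled red points rose and filled blue points fell at an adjusted p under 0.05, and open grey points did not pass. The 7 members that rose lie between 0.23 and 0.39 and belong to the mitotic kinesins, the regulators and the Cenp genes (Cenpj, a gene of centriole assembly, stands in the centromere group by its name), and all 8 replication genes are open points.

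Among the mitotic kinesins, motor proteins of the spindle, Kif20a rose and had the largest change of all members. Kif20a encodes MKLP2, which carries the chromosomal passenger complex to the spindle midzone for cytokinesis. Its log2 signal was 8.53, 8.53, 8.47 and 8.72 in KO arrays, against 8.14, 8.14, 8.22 and 8.17 in wildtype arrays. The lowest KO array lay 0.25 above the highest wildtype array, and KO replicate 4 stood highest. The log2 fold change was 0.39 ± 0.06 (SE), 1.31-fold with a 95% interval of 1.197 to 1.443 (limma adjusted p = 0.00178). Kif4, a chromokinesin, averaged 7.39 ± 0.05 in KO and 7.22 ± 0.10 in wildtype arrays (SD, n = 4 each), with a log2 fold change of 0.17 and a limma adjusted p of 0.131. Its call was gained without wildtype replicate 4, and with genes of mean signal below 5 dropped, and over all alternatives its adjusted p was 0.037 to 0.276. Kif18b, which shortens astral microtubules, had 7.28 ± 0.06 in KO and 7.18 ± 0.05 in wildtype arrays, a log2 fold change of 0.10 (adjusted p = 0.342). Kif14, another kinesin of cytokinesis, had signals of 2.61 to 2.72 in KO and 2.66 to 2.74 in wildtype arrays, under the lower quartile of every array (3.33 to 3.39), and the table has no detection call to say whether such a signal is above background.

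Among the cyclins, kinases and other regulators, Mki67, Plk1 and Ccnb2 rose, Cdca7 fell and 10 did not pass. These 4 calls were 28.6% of the 14 genes, where 8.90% of all genes were called. Mki67 encodes Ki-67, a surface protein of mitotic chromosomes used as a marker of cycling cells. Its log2 signal was 9.29, 9.31, 9.35 and 9.49 in KO arrays, against 9.02, 8.99, 9.06 and 9.05 in wildtype arrays. All KO arrays were higher than all wildtype arrays, by a gap of 0.23. The log2 fold change was 0.33 ± 0.06 (SE), 1.26-fold with a 95% interval of 1.16 to 1.37 (limma adjusted p = 0.00319).

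Ccnb2, the cyclin B2 gene, had log2 signals of 9.22, 9.30, 9.28 and 9.30 in KO arrays, against 9, 9.02, 9.12 and 9.03 in wildtype arrays. The groups did not overlap, with a gap of 0.105 between them. Ccnb2 rose by 0.23 ± 0.05 (SE) on the log2 scale, 1.17-fold with a 95% interval of 1.09 to 1.27 (limma adjusted p = 0.0145). Plk1, the polo-like kinase of mitotic entry and spindle assembly, had 8.84, 8.92, 8.87 and 9.02 in KO arrays, against 8.61, 8.64, 8.71 and 8.73 in wildtype arrays. The lowest KO array was 0.11 above the highest wildtype array. Plk1 rose by 0.24 ± 0.06 (SE; limma adjusted p = 0.0241), 1.18-fold. The call of Plk1 was lost without wildtype replicate 1 or 2, or without KO replicate 2 or 4, and its adjusted p was 0.00101 to 0.0691 over all alternatives.

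Cdca7 encodes a zinc finger protein that recruits the chromatin remodeler HELLS. Its log2 signal was 8.44, 8.45, 8.49 and 8.41 in KO arrays, against 8.73, 8.65, 8.61 and 8.57 in wildtype arrays. All KO arrays were lower, by a gap of 0.08, and Cdca7 fell by 0.19 ± 0.05 (SE; limma adjusted p = 0.0467). The call held without wildtype replicate 4, was lost without any other single array, and was lost with arrays centred on their medians; the adjusted p was 0.00502 to 0.122 over all alternatives. Its relative Cdca7l had 8.14 ± 0.07 in KO and 8.05 ± 0.06 in wildtype arrays (SD, n = 4 each), a log2 fold change of 0.09 (adjusted p = 0.42).

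The regulators that did not pass included genes of both G1 and mitosis. Cdc16, a subunit of the anaphase-promoting complex, had 9.46 ± 0.03 in KO and 9.43 ± 0.05 in wildtype arrays (SD, n = 4 each), with a 95% interval of the log2 difference of -0.08 to 0.14. Cdc34, an E2 ubiquitin-conjugating enzyme that works with SCF ligases, had 10.36 ± 0.03 in KO and 10.41 ± 0.06 in wildtype arrays, with an interval of -0.16 to 0.06. Ccne2, a cyclin of the G1 to S transition, had a difference of -0.04 with an interval of -0.19 to 0.11. Cdc25b, a phosphatase that activates cyclin-dependent kinases, had a difference of 0.00 with an interval of -0.16 to 0.16. Of the remaining 5 regulators, Ccna1, Ccnb3, Ccnb1ip1 and Aurkc are known mainly from germ cells and Cdc20b from multiciliated cells. All 5 lay below the array medians, with mean log2 signals from 2.32 (Ccna1) to 3.84 (Aurkc), and none passed limma.

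**Figure D2:**
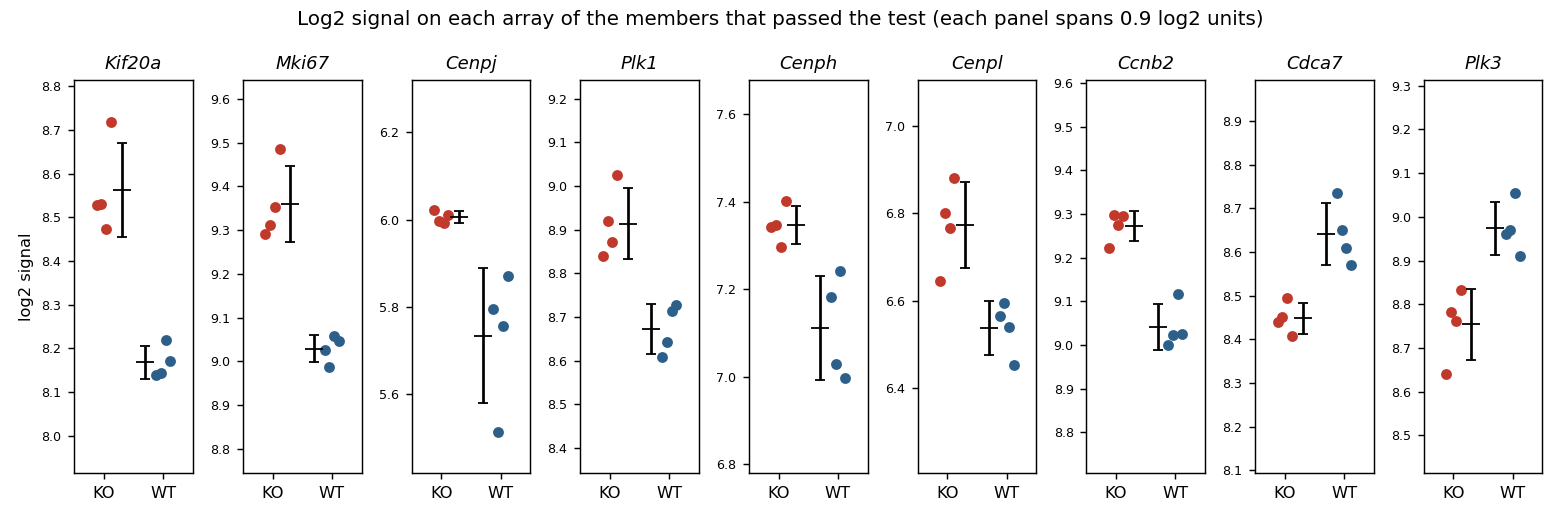
Log2 signal (y axis) of the 9 members that passed the test, 1 panel per gene, with the 4 Nfkbiz KO arrays in red at the left and the 4 wildtype arrays in blue at the right; bars show the mean and SD. Each panel spans the same height, so that sizes can be compared. The groups do not overlap in any panel, and the gap is widest in Kif20a (0.25) and Mki67 (0.23) and narrowest in Cenpl and Cenph (0.05 in both).

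Among the 12 genes named Cenp or Ncap, 3 rose, none fell and 9 did not pass, with a median log2 fold change of 0.08, where that of all genes was -0.01. These 3 calls were 25% of the 12, where 8.90% of all genes were called. All 12 lay above the array median, where 14.6% of all genes were called. Cenpj, whose protein acts in centriole assembly and which is in this group by its name, had log2 signals of 6.02, 6.00, 5.99 and 6.01 in KO arrays, against 5.80, 5.51, 5.76 and 5.87 in wildtype arrays. The KO arrays were nearly equal and wildtype replicate 2 was low. Cenpj rose by 0.27 ± 0.07 (SE; limma adjusted p = 0.0422).

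Cenph and Cenpl encode subunits of the inner kinetochore network that sits on centromeric chromatin throughout the cycle. Cenph had 7.343, 7.346, 7.296 and 7.402 in KO arrays, against 7.181, 7.028, 7.242 and 6.996 in wildtype arrays. Cenpl had 6.64, 6.80, 6.77 and 6.88 in KO arrays, against 6.57, 6.60, 6.54 and 6.45 in wildtype arrays. In both genes the KO arrays lay above all wildtype arrays by only 0.05, and the log2 fold change was 0.235 ± 0.065 (SE) for Cenph and 0.235 ± 0.062 for Cenpl (limma adjusted p = 0.0461 for Cenph and 0.0394 for Cenpl). All 3 calls depended on which arrays were used. Cenpj passed only without wildtype replicate 4, Cenph only without wildtype replicate 3 and Cenpl only without KO replicate 1 when 1 array was left out, and Cenph and Cenpl also lost their calls after quantile normalization. Over all alternatives the adjusted p was 0.0145 to 0.0973 for Cenpj, 0.0104 to 0.127 for Cenph and 0.0113 to 0.1 for Cenpl.

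The other genes named Cenp or Ncap had smaller differences, with log2 fold changes from -0.14 (Cenpv) to 0.12 (Cenpq). Cenpq averaged 7.98 ± 0.05 in KO and 7.86 ± 0.06 in wildtype arrays (SD, n = 4 each; adjusted p = 0.21 by limma). Cenpt, which links the network to the outer kinetochore, had 7.85 ± 0.05 in KO and 7.73 ± 0.04 in wildtype arrays, with groups that did not overlap (limma adjusted p = 0.196). Cenpi, Cenpc1, Cenpm and Cenps had log2 fold changes of 0.08, 0.08, 0.07 and 0.04, and Cenpx, the partner of Cenps, had -0.003. Ncapg2, a subunit of condensin II that compacts mitotic chromosomes, had 8.56 ± 0.06 in KO and 8.62 ± 0.06 in wildtype arrays, a log2 fold change of -0.06 (adjusted p = 0.598). Cenpv had a log2 fold change of -0.14, with KO arrays below all wildtype arrays but a limma adjusted p of 0.137, and it passed with genes of mean signal below 5 dropped (adjusted p 0.0406 to 0.276 over all alternatives).

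None of the 8 DNA replication genes passed limma, and 2 of them had an unadjusted p under 0.05, Pole higher and Pold2 lower. So did 1932 of all 9294 genes, and 1480 of the 5035 genes above the array median, where all 8 lay. With 8.90% of all genes called, no call among 8 genes is near that background, and the difference from the other role groups was not tested. The median log2 fold change was 0.01, and all 95% intervals lay between -0.31 and 0.32, that is between 0.808-fold and 1.25-fold. Pold2, the second subunit of DNA polymerase delta, had log2 signals of 8.13, 8.21, 8.19 and 8.14 in KO arrays, against 8.28, 8.34, 8.46 and 8.32 in wildtype arrays. The KO arrays were all lower, the log2 fold change was -0.19 ± 0.05 (SE), and the limma adjusted p was 0.0617. Pold2 passed after quantile normalization, with the lowest 25% of genes or those of mean signal below 5 left out, and with a variance trend, and its adjusted p was 0.0102 to 0.148 over all alternatives. Pold4, the smallest subunit of the same polymerase, had a log2 fold change of 0.06 (adjusted p = 0.64). Pole, the catalytic subunit of DNA polymerase epsilon, had 7.36, 7.32, 7.33 and 7.46 in KO arrays, against 7.19, 7.14, 7.10 and 7.38 in wildtype arrays. The groups overlapped through wildtype replicate 4, and without that array Pole passed (adjusted p 0.0449 to 0.35 over all alternatives, 0.188 with all arrays).

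The genes that prepare replication origins had small differences. Orc6 averaged 8.66 ± 0.03 in KO and 8.67 ± 0.05 in wildtype arrays (SD, n = 4 each), and Orc5 averaged 7.55 ± 0.03 in KO and 7.57 ± 0.02 in wildtype arrays. Cdc6, the loader of the MCM helicase, had 7.34 ± 0.07 in KO and 7.37 ± 0.05 in wildtype arrays, with a 95% interval of the log2 difference of -0.15 to 0.09. Rfc5, a subunit of the clamp loader, had a log2 fold change of 0.04, and Mcm8, a helicase known for its part in homologous recombination, had 0.03. The E2F factors did not pass either. E2f4, mainly a repressor, had a log2 fold change of -0.01 (95% interval -0.17 to 0.15), and E2f7, an atypical E2F that represses E2F target genes, had 7.22 ± 0.02 in KO and 7.32 ± 0.06 in wildtype arrays, with groups that did not overlap and a limma adjusted p of 0.316. Neither had an unadjusted p under 0.05.

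Of the 15 members that share only the name or act mainly elsewhere, Plk3 fell and 14 did not pass, with a median log2 fold change of -0.01. That call was 6.67% of the 15, where 8.90% of all genes were called. Plk3, a polo-like kinase of the stress response, had log2 signals of 8.64, 8.78, 8.76 and 8.83 in KO arrays, against 8.96, 8.97, 9.06 and 8.91 in wildtype arrays. Its KO arrays were all lower, by a gap of 0.08, and Plk3 fell by 0.22 ± 0.06 (SE; limma adjusted p = 0.0394), a direction opposite to that of Plk1. The call of Plk3 held without wildtype replicate 4 or KO replicate 4 and was lost without any other single array, after quantile normalization and with arrays centred on their medians (adjusted p 0.00236 to 0.108 over all alternatives). Plk5, a relative without kinase activity, had a log2 fold change of -0.09.

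The genes named after Cdc42, a small GTPase of the actin cytoskeleton, did not pass. Cdc42bpg, an effector kinase, averaged 9.75 ± 0.05 in KO and 9.60 ± 0.09 in wildtype arrays (SD, n = 4 each; limma adjusted p = 0.17), and it passed with a variance trend (adjusted p 0.0302 to 0.339 over all alternatives). Cdc42ep2 had 5.80 ± 0.13 in KO and 5.63 ± 0.20 in wildtype arrays, a log2 fold change of 0.17 (limma adjusted p = 0.392). Cdc42ep1, Cdc42se2 and Cdc42bpb had log2 fold changes of 0.03, -0.01 and -0.09. Cdc123, an assembly factor of the translation factor eIF2, and Mcm3ap, a scaffold of mRNA export, had log2 fold changes of 0.06 and 0.07. The kinesins outside mitosis, among them Kif7 of hedgehog signalling and Kif9 and Kif27 of cilia, had log2 fold changes from -0.12 (Kif27) to 0.12 (Kif9), with Kif26a at 0.02, Kif7 at -0.11, Kif28 at -0.10 and Kif2b at -0.05. Kif2b, which acts on kinetochore microtubules in human cells, was placed here by the grouping, and its mean signals of 2.44 in KO and 2.49 in wildtype arrays lay below the lower quartiles. Kif28 also lay below the lower quartiles, at means of 2.91 in KO and 3.01 in wildtype arrays. Kif27, at 3.73 in KO and 3.86 in wildtype arrays, lay below the array medians.

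Promoter windows were read to set the members that rose beside those that fell. The table of RefSeq sequences (build GRCm38.p6) held windows for 49 of the 55 members, 52 windows in all, and the 250 bases before each annotated start were searched on both strands. The motifs were the cell cycle homology region, CHR (TTTGAA or TTCGAA), through which the DREAM and MuvB complexes act on late cell cycle genes, the CCAAT box of NF-Y (CCAAT), and E2F sites (TTTGGCGC, TTTGGCGG, TTTCGCGC or TTTCGCGG). The letters of the motifs do not overlap in the windows shown. Of the 8854 windows of genes tested, 14.7% held a CHR, 35% a CCAAT box and 1.58% an E2F site, and of all 32851 windows 17.1%, 33.8% and 1.31% did. Of the 52 member windows, 8 held a CHR (15.4%), 23 a CCAAT box (44.2%) and 1 an E2F site (1.92%). Windows were present for 6 of the members that rose, of which 3 held a CHR, 4 a CCAAT box and 1 an E2F site. The windows of Cdca7 and Plk3 held no match to the letters searched. Other spellings of the E2F site were not searched, in these or in any other windows. The lack of a match therefore does not show that Cdca7 or Plk3 lacks an E2F element, or that they differ in this from the members that rose. A match is a description of letters and not a site, and 6 windows are too few to compare shares. The windows are Mki67 at chr7:135716380-135716629, minus strand, Ccnb2 at chr9:70421555-70421804, minus strand, Cenpl at chr1:161070517-161070766, plus strand, Plk1 at chr7:122159185-122159434, plus strand, Cdca7 at chr2:72475969-72476218, plus strand and Plk3 at chr4:117133964-117134213, minus strand. They are written 5′ to 3′ toward the gene, with motif matches in capitals in either orientation.
Mki67: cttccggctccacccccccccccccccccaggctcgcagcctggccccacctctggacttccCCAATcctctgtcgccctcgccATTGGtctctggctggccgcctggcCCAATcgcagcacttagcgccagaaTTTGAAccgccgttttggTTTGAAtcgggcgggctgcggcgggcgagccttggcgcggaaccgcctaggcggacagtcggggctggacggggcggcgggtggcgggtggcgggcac
Ccnb2: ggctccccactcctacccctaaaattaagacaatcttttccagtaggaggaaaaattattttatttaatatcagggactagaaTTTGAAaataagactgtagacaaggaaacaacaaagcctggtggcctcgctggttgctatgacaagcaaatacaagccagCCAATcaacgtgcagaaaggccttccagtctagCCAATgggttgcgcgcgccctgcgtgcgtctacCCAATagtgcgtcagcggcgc
Cenpl: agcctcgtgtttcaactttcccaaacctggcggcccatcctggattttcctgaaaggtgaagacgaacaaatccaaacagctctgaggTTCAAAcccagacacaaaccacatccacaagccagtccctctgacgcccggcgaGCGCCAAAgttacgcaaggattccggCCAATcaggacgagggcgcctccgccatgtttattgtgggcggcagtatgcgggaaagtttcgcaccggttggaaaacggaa
Plk1: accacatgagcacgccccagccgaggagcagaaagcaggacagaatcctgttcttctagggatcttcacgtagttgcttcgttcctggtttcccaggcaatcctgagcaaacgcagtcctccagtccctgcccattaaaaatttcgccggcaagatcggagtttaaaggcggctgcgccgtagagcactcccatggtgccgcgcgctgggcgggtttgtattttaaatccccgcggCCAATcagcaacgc
Cdca7: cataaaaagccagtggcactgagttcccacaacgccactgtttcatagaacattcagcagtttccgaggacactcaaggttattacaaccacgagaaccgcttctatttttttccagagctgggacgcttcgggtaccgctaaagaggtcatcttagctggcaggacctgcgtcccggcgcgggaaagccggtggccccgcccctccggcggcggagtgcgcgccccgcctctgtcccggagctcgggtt
Plk3: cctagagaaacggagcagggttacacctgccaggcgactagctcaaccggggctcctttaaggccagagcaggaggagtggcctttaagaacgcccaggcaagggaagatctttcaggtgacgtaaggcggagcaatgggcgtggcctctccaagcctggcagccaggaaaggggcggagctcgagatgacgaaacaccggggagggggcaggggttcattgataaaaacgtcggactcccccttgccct
Mki67 and Ccnb2, which passed under every alternative, held 3 CCAAT boxes each, with 2 CHR matches in Mki67 and 1 in Ccnb2. Plk1 held 1 CCAAT box next to its annotated start, and Cenpl held 1 match of each motif. The windows of Cenph and Cenpj, which also rose, held no match.

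Other genes of the same pathway, outside the families, were read from lists of well-known symbols, drawn up with earlier results of these data known, so that their counts are no independent evidence. Of 54 listed genes of G2 and mitosis, 18 were measured, of which 8 rose, none fell and 10 did not pass limma. The 8 were 44.4% of the 18, where 4.47% of all genes were higher in the KO. All 18 lay above the array median, where 14.6% of all genes were called in either direction. The median log2 fold change of the 18 was 0.24, where that of all genes was -0.01. Ect2, which activates RhoA for cytokinesis, had log2 signals of 8.91, 8.97, 8.98 and 9.13 in KO arrays, against 8.66, 8.64, 8.62 and 8.57 in wildtype arrays. The groups did not overlap, and Ect2 rose by 0.37 ± 0.06 (SE; limma adjusted p = 0.00193). Ndc80 and Nuf2, partners in the outer kinetochore complex that binds microtubules, rose by 0.37 ± 0.07 and 0.268 ± 0.065 (SE; limma adjusted p = 0.00891 and 0.027), and the groups of Nuf2 overlapped at wildtype replicate 3. Melk, a mitotic kinase, rose by 0.30 ± 0.06, Gtse1, which binds microtubules, by 0.28 ± 0.06, and Depdc1b by 0.33 ± 0.08 (limma adjusted p = 0.0108, 0.0176 and 0.0211). Neither Kpna2, an importin (0.12, limma adjusted p = 0.276), nor the kinase gene Pbk (0.20, limma adjusted p = 0.051) passed; Pbk passed in 5 alternatives (adjusted p 0.00243 to 0.13 over all of them). The count of 8 became 3 without KO replicate 3 or without wildtype replicate 2, 5 without KO replicate 2 or 4 or without wildtype replicate 1, and 13 with a variance trend, while Ect2, Ndc80 and Melk passed under every alternative. In the same KO arrays 5 of the 6 fibroblast markers fell and Postn rose, and the summed fibroblast, keratinocyte and melanocyte markers were lower than in wildtype arrays, as given above.

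Of 43 listed genes of S phase and nucleotide supply, 12 were measured, of which Rpa3 and Tk1 rose and 10 did not pass. These calls were 16.7% of the 12, where 4.47% of all genes were higher. All 12 lay above the array median, where 14.6% of all genes were called in either direction. The median log2 fold change of the 12 was 0.06. Pcna, the sliding clamp of replication, averaged 11.95 ± 0.03 in KO and 11.94 ± 0.08 in wildtype arrays (SD, n = 4 each), with a 95% interval of the log2 difference of -0.10 to 0.13. Tipin, of the fork protection complex, had a log2 fold change of 0.04. Rpa3, the small subunit of the single-strand binding protein RPA, rose by 0.24 ± 0.06 and Tk1, thymidine kinase, by 0.21 ± 0.06 (SE; limma adjusted p = 0.0374 and 0.0459). With 1 array left out, Rpa3 passed only without wildtype replicate 3 and Tk1 only without KO replicate 1, and Tk1 also lost its call with array weights, with adjusted p of 0.00342 to 0.104 for Rpa3 and 0.00264 to 0.118 for Tk1 over all alternatives. The difference between the G2 and mitosis list and the S phase list was not tested.

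**Figure D3:**
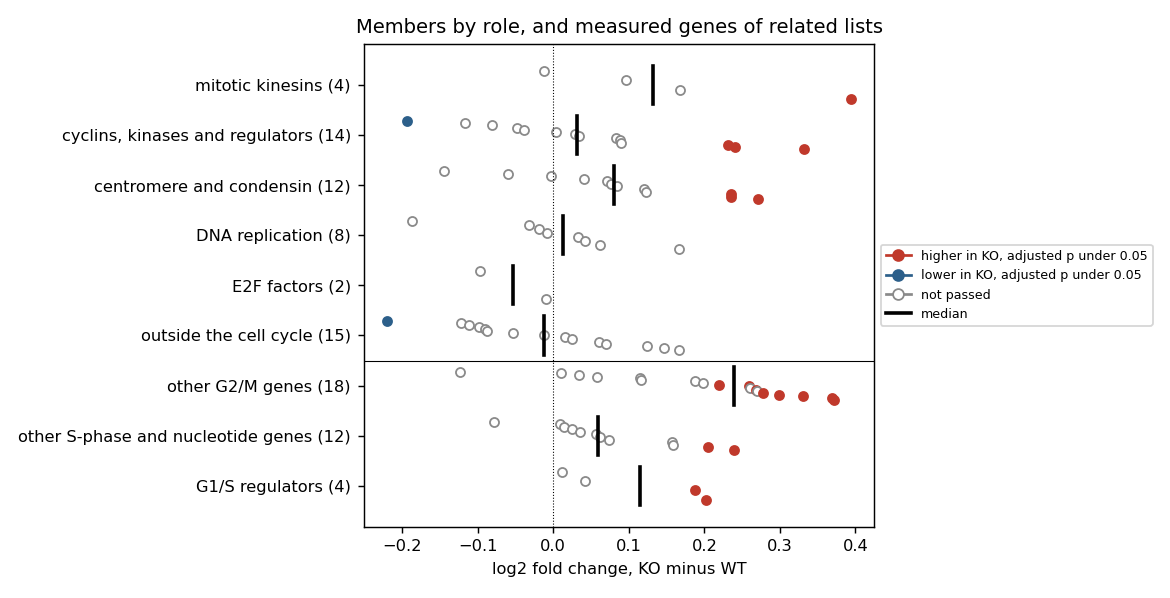
Log2 fold change, Nfkbiz KO minus wildtype (x axis), of each member by role (upper 6 rows) and of the measured genes of 3 related lists (lower 3 rows), with the number of genes in brackets and the median as a black bar. Red points rose, blue points fell and open points did not pass at an adjusted p of 0.05. The median is 0.24 in the other G2 and mitosis genes, 0.06 in the other S phase genes and 0.01 in the replication members; the CDK inhibitors, which reach 1.59, are not drawn.

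Cdk1, Cdk4 and 3 of 6 measured inhibitors of cyclin-dependent kinases rose in the KO. They come from lists drawn up with earlier results of these data known. Calls were 50% of the measured genes in both lists, where 4.47% of all genes were higher. All measured genes of both lists lay above the array median, where 14.6% of all genes were called in either direction. Of 17 listed regulators of G1 and S, 4 were measured. Cdk1, the mitotic kinase that partners Ccnb2, stands in this list by the grouping, and the share of 50% includes it. Cdk1 rose by 0.20 ± 0.05 and Cdk4, the partner of D-type cyclins, by 0.19 ± 0.05 (SE, limma adjusted p = 0.0339 and 0.0355). Tfdp1, the partner of E2F factors, and Myc had log2 fold changes of 0.04 and 0.01. With 1 array left out, Cdk1 passed only without wildtype replicate 3 and Cdk4 in no case (adjusted p 0.0006 to 0.0871 for Cdk1 and 0.000466 to 0.0951 for Cdk4 over all alternatives). Of 8 listed inhibitors, 6 were measured, and Cdkn2a, Cdkn2b and Cdkn3 rose while Cdkn2d, Cdkn1c and Cdkn2c did not pass. Cdkn2a, which encodes p16 and p19ARF, averaged 5.84 ± 0.17 in KO and 4.25 ± 0.08 in wildtype arrays (SD, n = 4 each), and its neighbour Cdkn2b averaged 8.15 ± 0.09 in KO and 7.51 ± 0.05 in wildtype arrays (limma adjusted p = 7.5e-07 for Cdkn2a and 3.78e-05 for Cdkn2b). Cdkn3, a phosphatase that acts on cyclin-dependent kinases, rose by 0.25 ± 0.05 (SE; limma adjusted p = 0.00886), and the differences of Cdkn2d (0.17) and Cdkn2c (-0.06) had limma adjusted p of 0.0938 and 0.652. Cdkn2a, Cdkn2b and Cdkn3 passed under every alternative.

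Calls of members depended on single arrays to different degrees. Kif20a, Mki67 and Ccnb2 passed in all 16 alternatives, including each array left out in turn, with adjusted p up to 0.00858, 0.0126 and 0.048. Averaging all probe sets of a gene, 1 of the 16, could not change the value of any member, since each had 1 probe set. Over the members that rose, KO replicate 4 was the highest KO array in 5 of 7 genes. Without KO replicate 4, 3 members rose and 1 fell. Without KO replicate 2, or without wildtype replicate 1 or 2, 3 rose and none fell, and without KO replicate 3, 4 rose and none fell. Without KO replicate 1 or wildtype replicate 3, 5 rose and none fell, and without wildtype replicate 4, 7 rose and 2 fell, but Cenph and Cenpl had lost their calls and Kif4 and Pole had gained them. With arrays centred on their medians, 7 members rose and none fell, and over all genes 482 were higher and 314 lower, where 415 were higher and 412 lower as deposited.

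**Figure D4:**
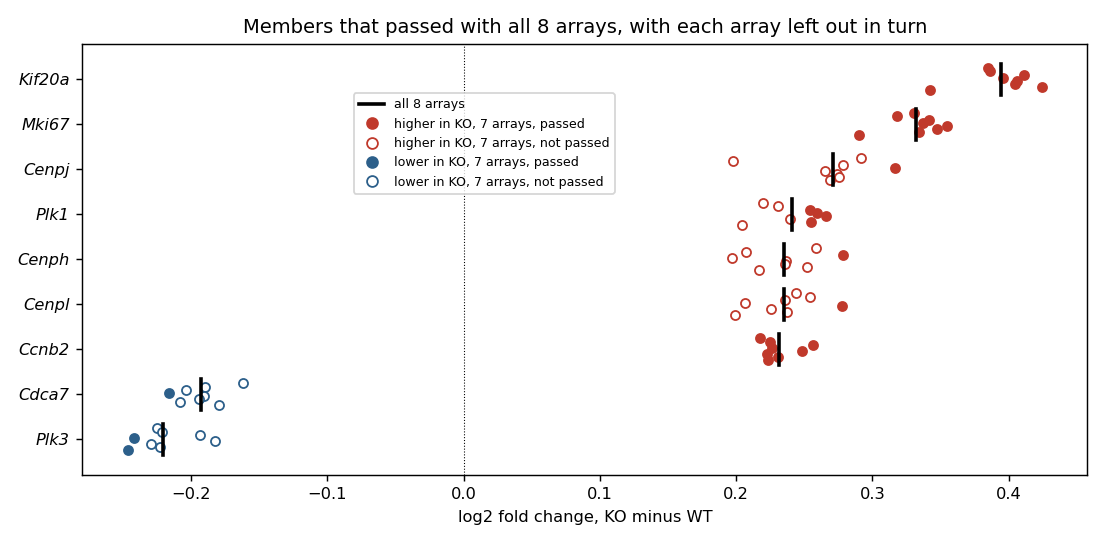
Log2 fold change, Nfkbiz KO minus wildtype (x axis), of the 9 called members with all 8 arrays (black bars) and with each array left out in turn (points, filled where the adjusted p stayed under 0.05). Every point keeps the sign of its bar, and all 8 points are filled only for Kif20a, Mki67 and Ccnb2.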

How the data were processed

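The deposited table held 1 log2 value per probe set for 11373 probe sets on 8 arrays; the scale was taken from its range of 1.57 to 13.9, and the summarisation and normalization by the authors were not given in the sources used here. The labelling was with biotin, per the labels. Probe sets were named through the platform annotation: 9374 had 1 symbol, 479 several and 1520 none. The probe set with the highest mean was kept, giving 9294 genes, and all 55 members matched the reference gene table by Entrez identifier. A second probe set naming Kif27 with another gene was left out.

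Nfkbiz KO minus wildtype was tested gene by gene in limma (version 3.58.1, under R 4.3.3; functions lmFit and eBayes) without covariates, and p-values were adjusted by Benjamini-Hochberg over all genes. The code was tested on simulated data. Members and lists were chosen with earlier results of these data known. Named by rule were called members, Mki67 and a few core mitotic genes where measured, the 3 with the highest mean and the 2 with the largest change in each role group, and in each list up to 6 called genes and the 2 highest others (26 members and 21 list genes); the other 29 members were named to cover all. There were 16 alternatives, given in the closing section. Scan dates and detection calls were not used here, and no array duplicated another, since differences within a group had an SD of 0.157 to 0.175.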

Additional observations from a re-analysis of the deposited data

Results flagged for a closer look

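A total of 15 of 152 groups of 4 arrays had 1 array far from the other 3, where chance gives about 1 in 20. The genes were the 55 members and the 21 named genes of the lists. KO replicate 4 stood apart in 4 genes: Kif9 was low at 4.41 (others 4.82 to 4.85), Cdkn2b low at 8.02 (others 8.19 to 8.22), Cdk1 high at 10.297 (others 10.177 to 10.197) and Pbk high at 9.77 (others 9.63 to 9.65). KO replicate 3 was high in Cdc34 at 10.405 (others 10.347 to 10.353), in Plk5 at 5.35 (others 5.08 to 5.11) and in Depdc1b at 7.79 (others 7.56 to 7.60). KO replicate 2 was high in Kif27 at 3.89 (others 3.67 to 3.69), and KO replicate 1 was low in Cdc25b at 7.40 (others 7.56 to 7.58). Wildtype replicate 2 was low in Cenpc1 at 7.77 (others 7.83 to 7.84) and in Mcm3ap at 7.41 (others 7.54 to 7.56). Wildtype replicate 3 was low in Cdc42ep2 at 5.33 (others 5.71 to 5.78) and high in Nuf2 at 7.76 (others 7.57 to 7.59), where it overlapped the KO arrays. Wildtype replicate 4 was high in Cenpt at 7.79 (others 7.71 to 7.72), and wildtype replicate 1 was high in Kpna2 at 11.63 (others 11.54 to 11.55). None of the 9 called members had such an array.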

How the results depend on the processing

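Of 1200 gene results over 16 alternatives, 1092 kept their side of the threshold, 91 lost and 17 gained a call, and no called value changed sign. Most of the 76 genes were not called as deposited, and only a called gene could lose a call. The 1092 therefore does not measure how stable the calls were, and all 91 losses fell among the called genes. As deposited, 7 members rose and 2 fell. With each array left out in turn, 3 to 7 rose and 0 to 2 fell, the members' median log2 fold change was 0.02 to 0.04, and over all genes 288 to 350 were higher and 305 to 352 lower. With arrays centred on their medians 0 fell and the median was 0.05985. Testing only genes of mean signal 5 or more left 4414 genes, 45 of them members. There 8 members rose and 4 fell, while over all genes tested 568 were higher and 487 lower. With the replicate block 4 members rose and 0 fell, and 325 genes were higher and 334 lower; the block ended the calls of Cenpj, Cenph, Cenpl, Cdca7, Plk3, Cdk1, Cdk4 and Tk1. The labels give a replicate number and do not say whether same-numbered samples were prepared together. Deviations of same-numbered arrays correlated at -0.05 to 0.09 across genes. Of the 4 KO arrays only replicate 1 correlated best with its own number. With 4 arrays per group these correlations cannot decide whether the samples were paired. The cause of the shifts was not tested. Quantile normalization, the lowest 25% left out, all probe sets averaged, a variance trend and array weights gave 5 to 8 rises and 2 or 3 falls. With no detection calls, weak signals have no stated floor.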
